A study of Mus musculus with 6 samples.

Results

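The 10 genes described here, Gfra1, Ret, Id4, Etv5, Zbtb16, Nanos2, Nanos3, Lin28a, Sall4 and Foxo1, are known for the self-renewal of spermatogonial stem cells. They were chosen by name, and all 10 were found among the 53700 gene identifiers counted in each library. RNA came from whole testes of mice at postnatal day 45, with 3 libraries from mice labelled MSL3 WT (WT) and 3 from mice labelled MSL3 cKO (cKO), conditional knockouts of a floxed Msl3 allele. The labels give both groups the strain Msl3em1Forni/C57BL/6J. The recombinase, the cells in which it acts and the deleted exons are not given in the sources used here. Each library is described as a biological replicate of its group.

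A whole testis at this age holds mostly meiotic and postmeiotic germ cells, with stem cells as a small fraction of the tubule wall. Self-renewal is driven by glial cell line-derived neurotrophic factor (GDNF), which Sertoli and peritubular cells release and which binds the co-receptor GFRA1 and the receptor tyrosine kinase RET on undifferentiated spermatogonia. The signal maintains transcription factors such as ETV5 and ID4 and the RNA-binding protein NANOS2, while loss of these factors lets the cells turn on Kit and differentiate. In flies, Msl3 has been linked to the exit of germline stem cells towards meiosis, which is the question that the comparison of these genes between WT and cKO addresses.

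The libraries held 56991431 to 73766444 reads assigned to genes. Msl3 itself had 16.0, 18.9 and 15.9 CPM (counts scaled to library size) in WT 1, 2 and 3 and 16.0, 14.8 and 15.8 CPM in cKO 1, 2 and 3. The groups overlapped (log2 fold change -0.12, SE 0.088, edgeR adjusted p = 0.550), so the gene-level count does not separate the labels and the groups are called by their labels throughout. CPM use library sizes scaled by the trimmed mean of M values (TMM). Log2 fold changes are those of cKO relative to WT, and a gene was called when its adjusted p was under 0.05. Markers of the adult testis were all detected: summed spermatocyte markers ranged from 4707 to 5139 CPM, Sertoli markers from 325 to 399 CPM and Leydig markers from 756 to 976 CPM.

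Levels of the 10 genes can be set side by side only per exon length, here as CPM divided by the kilobases of annotated exons (RPKM). Id4, which encodes a protein that binds basic helix-loop-helix factors and keeps them off DNA, was highest at 11.8 ± 0.525 RPKM (SD, n = 6 libraries). Etv5, an ETS transcription factor that is also known in Sertoli cells, followed at 5.78 ± 0.367 RPKM (SD, n = 6). Foxo1, a forkhead factor that AKT keeps out of the nucleus, stood at 1.48 ± 0.166 RPKM (SD, n = 6). The 6-library ranges of these 3 genes did not touch each other, and that of Foxo1 lay above that of Lin28a. Whole-testis counts do not show which cells supply the reads, for Id4 as for the other members.

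Below them, 5 genes formed a group in which each overlapped the next. Lin28a, whose product blocks the maturation of let-7 microRNAs, had 1.02 ± 0.160 RPKM (SD, n = 6), and Zbtb16, the zinc-finger repressor also called PLZF, had 0.920 ± 0.106 RPKM (SD, n = 6). Gfra1 had 0.790 ± 0.0721 RPKM, Sall4, another zinc-finger factor of the undifferentiated state, 0.774 ± 0.161 RPKM and Nanos3 0.676 ± 0.126 RPKM (SD, n = 6 for each). Ret was lower than all of these at 0.229 ± 0.0410 RPKM (SD, n = 6), so that the co-receptor Gfra1 was above its kinase partner in every library. With the longest transcript as the length, Nanos3 and Sall4 changed places and the rest of the order was kept. Id4 lay above 78.1% of the tested genes in level per length, Gfra1 above 31.3% and Ret above 13.5%.

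**Figure D1:**
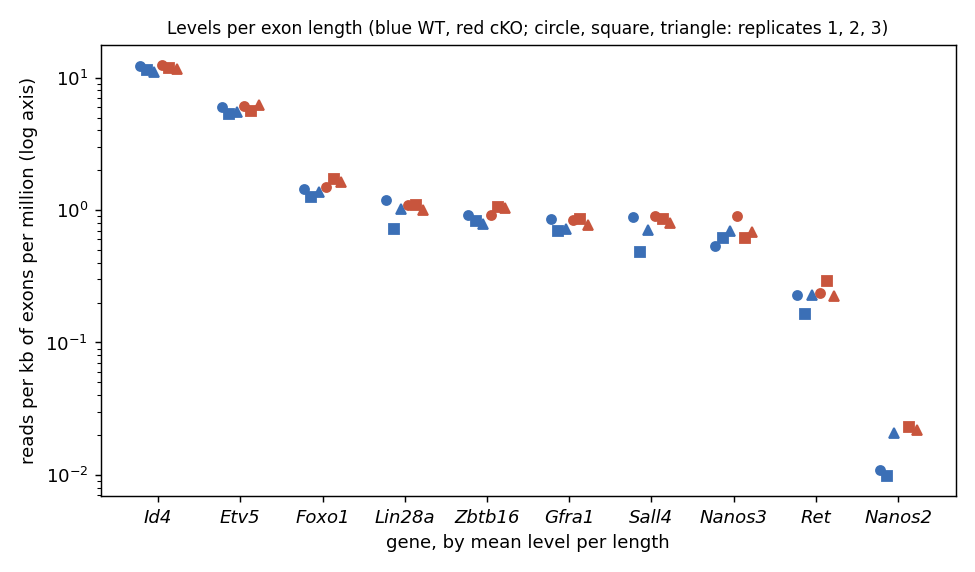
Levels of the 10 genes in RPKM (log axis), 1 point per library, blue for WT and red for cKO. Id4, Etv5 and Foxo1 each stand apart, Lin28a to Nanos3 overlap, and Nanos2 is at the bottom; its value of 0 in cKO 1 cannot be drawn on a log axis.

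Nanos2, an RNA-binding protein that recruits the CCR4-NOT deadenylase and is known from the most primitive spermatogonia, was at the edge of detection. It had 1, 1 and 2 reads in WT 1, 2 and 3 and 0, 2 and 2 reads in cKO 1, 2 and 3. The 8 reads over 6 libraries give 0.0214 CPM, with an exact Poisson interval (95%, counting error only) from 0.00925 to 0.0422 CPM. A count of 0 in cKO 1 allows up to 0.0411 CPM. Nanos2 did not pass the filter on low counts and was not tested. With 4 reads in each group, the Poisson interval ran from 0.00586 to 0.0551 CPM in WT and from 0.00582 to 0.0546 CPM in cKO. A difference between the groups within these limits was not detectable at this depth.

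The sequences before the start sites are shown for the most abundant member (Id4), the least abundant (Nanos2) and the one whose groups did not overlap (Foxo1), because their CpG content differs widely. They are RefSeq windows on GRCm38.p6, 5′ to 3′ on the gene's strand, limited to bases before the gene start in GENCODE M21. Capitals mark CG dinucleotides. The Id4 stretch is chr13:48260866-48261115, that of Foxo1 chr3:52268087-52268335 and that of Nanos2 chr7:18987274-18987399, all on the plus strand.
Id4: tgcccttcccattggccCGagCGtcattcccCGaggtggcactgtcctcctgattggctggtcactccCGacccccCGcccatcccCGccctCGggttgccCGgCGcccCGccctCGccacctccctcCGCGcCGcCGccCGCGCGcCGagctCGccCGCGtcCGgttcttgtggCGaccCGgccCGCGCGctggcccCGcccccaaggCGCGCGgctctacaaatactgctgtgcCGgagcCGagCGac
Foxo1: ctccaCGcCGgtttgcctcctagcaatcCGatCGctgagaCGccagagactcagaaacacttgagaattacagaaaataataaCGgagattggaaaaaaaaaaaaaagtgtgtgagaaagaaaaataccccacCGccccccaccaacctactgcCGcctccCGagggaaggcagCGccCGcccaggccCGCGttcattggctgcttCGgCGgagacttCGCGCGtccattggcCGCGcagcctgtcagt
Nanos2: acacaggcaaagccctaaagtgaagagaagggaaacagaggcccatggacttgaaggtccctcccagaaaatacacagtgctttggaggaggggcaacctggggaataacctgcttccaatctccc
The Id4 stretch holds 35 CG dinucleotides, the Foxo1 stretch 20 and the shorter Nanos2 stretch of 126 bases 0.

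RefSeq windows of 250 bases before the start were matched for 7 of the 10 genes. Of the 32841 windows of that length in the table, with a median of 6 CG, 2.98% held as many as Id4 or more. Etv5 had 27 and 18 CG at its 2 start sites, Foxo1 20, Gfra1 10, Lin28a 7, Nanos3 3 and Nanos2 0. Only 7.86% of all windows held no CG. Taking the start of Etv5 with more CG, by level per length the 7 genes ran Id4, Etv5, Foxo1, Lin28a, Gfra1, Nanos3, Nanos2, which is the order of their CG counts except that Lin28a and Gfra1 trade places. With the start of Etv5 that has 18 CG, Etv5 and Foxo1 trade places as well. This is a description over 7 genes, which differ in much else, and it rests on the RefSeq starts. The Gfra1 and Nanos3 windows lie wholly inside the GENCODE gene, and of the Etv5 window with 27 CG only 101 bases, with 7 CG, lie before the GENCODE start. The letters TATAA, searched on both strands, occurred in 22.8% of all windows and, among these genes, in Nanos2 alone, 31 bases before its RefSeq start. Of the Nanos2 window only the 126 bases shown above lie before the GENCODE start. The TATAA lies beyond them, inside the GENCODE gene.

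The receptor genes showed no difference between the groups beyond the spread of the libraries. Gfra1 (ENSMUSG00000025089, chromosome 19, 58235604 to 58455909 on GRCm38, minus strand) had 4.69, 3.80 and 3.96 CPM in WT 1, 2 and 3 and 4.63, 4.68 and 4.19 CPM in cKO 1, 2 and 3. WT 1 reached the level of the highest cKO libraries, so the groups overlapped (log2 fold change 0.12, SE 0.12, edgeR adjusted p = 0.692). Relative to WT, cKO stood at 109%, and the 95% interval ran from 90.8% to 130%. Ret (ENSMUSG00000030110, chromosome 6, 118151745 to 118197718, minus strand) had 1.55, 1.11 and 1.54 CPM in WT and 1.59, 1.98 and 1.51 CPM in cKO. WT 2 was the lowest and cKO 2 the highest library, with the other 4 close together (log2 fold change 0.27, SE 0.18, edgeR adjusted p = 0.516).

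Gfra1 was the one member with more reads on the opposite strand of its exons than on its own. The opposite strand had 410, 480 and 467 reads in WT 1, 2 and 3 and 371, 326 and 402 in cKO 1, 2 and 3, against 276, 247 and 246 and then 338, 262 and 245 reads on the strand of Gfra1. Over the 6 libraries 60.3% of the reads on Gfra1 exons were on the opposite strand, a share that 96.4% of the tested genes did not reach. In the other 9 members it was at most 11.1%, in Nanos2 with its few reads, and 2.88% or less elsewhere. The antisense gene Gm16277 overlaps the 3′ end of Gfra1 and shares 416 of its 662 exon bases with it. On its own strand Gm16277 had 225, 270 and 278 reads in WT and 211, 190 and 245 in cKO. These are fewer than the opposite-strand reads of Gfra1 in every library, and the source of the remainder was not tested.

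Scaled to library size, opposite-strand reads came to 7.29 ± 0.282 CPM (SD, n = 3) in WT and 5.93 ± 0.903 CPM (SD, n = 3) in cKO, and all 3 cKO libraries lay below all 3 WT libraries. The gap was narrow, with 6.97 CPM in WT 1 and 6.88 CPM in cKO 3. No test was run on these reads, and the share of genes without overlap on the opposite strand was not computed. On their own strand, 8.86% of all tested genes were lower in cKO without overlap. Gm16277, counted on its own strand, had 3.83, 4.16 and 4.47 CPM in WT and 2.89, 3.39 and 4.19 CPM in cKO, with overlap (log2 fold change -0.25, SE 0.14, edgeR adjusted p = 0.446). The direction of Gfra1 depended on keeping the strands apart: unstranded counts gave it a log2 fold change of -0.085 (edgeR adjusted p = 0.742).

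**Figure D2:**
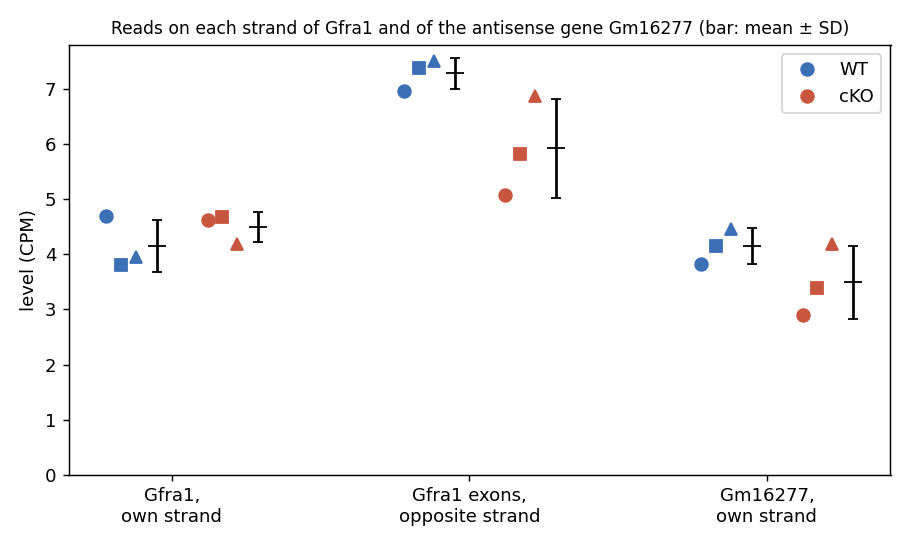
Levels in CPM of reads on the strand of Gfra1, on the opposite strand of its exons, and of the antisense gene Gm16277, 1 point per library with mean ± SD (n = 3). Opposite-strand reads exceed those of Gfra1 in every library. They are lower in the 3 cKO libraries than in the 3 WT libraries, by a narrow gap between cKO 3 and WT 1.

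Among the transcription factors downstream of the receptors, Id4 and Etv5 had the narrowest intervals of the list. Id4 (ENSMUSG00000021379, chromosome 13, 48261228 to 48266026, plus strand) had 47.3, 43.8 and 42.5 CPM in WT and 47.8, 45.4 and 45.1 CPM in cKO. The groups overlapped, and cKO stood at 104% of WT, with an interval from 93.2% to 115% (log2 fold change 0.050, SE 0.069, edgeR adjusted p = 0.793). Etv5 (ENSMUSG00000013089, chromosome 16, 22381309 to 22439719, minus strand) had 24.5, 21.7 and 22.6 CPM in WT and 25.1, 22.9 and 25.4 CPM in cKO. WT 1 lay above cKO 2, and the interval ran from 94.6% to 120% of WT (log2 fold change 0.092, SE 0.078, edgeR adjusted p = 0.630). Of the 75-base stretches of Etv5 transcripts, 18.7% also occur in Gm4798, a gene with 0 to 4 reads a library. Reads from such stretches fit both places. The counts hold reads that map to several places in a line of their own, with 6.10% to 6.75% of reads, which was left out. What share of Etv5 reads this removes was not tested.

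Foxo1 was the one member whose groups did not overlap. Foxo1 (ENSMUSG00000044167, chromosome 3, 52268336 to 52353221, plus strand) had 12.4, 10.9 and 11.9 CPM in WT 1, 2 and 3 and 13.0, 14.8 and 14.2 CPM in cKO 1, 2 and 3. The means were 11.7 ± 0.748 CPM (SD, n = 3) and 14.0 ± 0.902 CPM (SD, n = 3), so cKO exceeded WT by 0.25 on the log2 scale (SE 0.087). It did not pass the threshold over all genes (edgeR adjusted p = 0.301, unadjusted p = 0.0134). Groups did not overlap in 18.9% of all tested genes, with cKO higher in 10% and lower in 8.86%, so 1 of 9 tested members is no more than the background. Foxo1 has the longest exons of the list, and with a correction for GC content and length its log2 fold change was 0.11.

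Zbtb16 and Sall4, which mark the wider pool of undifferentiated spermatogonia, had larger point estimates and wider errors than Id4 and Etv5. Zbtb16 (ENSMUSG00000066687, chromosome 9, 48654297 to 48836222, minus strand) had 4.83, 4.37 and 4.15 CPM in WT and 4.81, 5.55 and 5.44 CPM in cKO, where cKO 1 lay inside the WT range (log2 fold change 0.24, SE 0.11, edgeR adjusted p = 0.362). Sall4 (ENSMUSG00000027547, chromosome 2, 168748332 to 168767943, minus strand) had 4.93, 2.65 and 3.92 CPM in WT and 5.03, 4.72 and 4.45 CPM in cKO. Its WT libraries spanned most of the range, with WT 2 lowest and WT 1 inside the cKO range (log2 fold change 0.31, SE 0.18, edgeR adjusted p = 0.466). The log2 fold change of Sall4 was 0.098 without WT 2 and 0.53 without WT 1.

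The groups overlapped in both tested RNA-binding members. Lin28a (ENSMUSG00000050966, chromosome 4, 134003330 to 134018841, minus strand) had 4.76, 2.90 and 4.04 CPM in WT and 4.38, 4.34 and 3.99 CPM in cKO. Both extremes were WT libraries (log2 fold change 0.12, SE 0.16, edgeR adjusted p = 0.771), which was -0.053 without WT 2 and 0.29 without WT 1. Nanos3 (ENSMUSG00000056155, chromosome 8, 84173731 to 84185217, minus strand), a relative of Nanos2 that is also present in later undifferentiated cells, had 29, 37 and 40 reads in WT and 61, 32 and 37 reads in cKO. The high count in cKO 1 set it apart from the other 5 libraries at 0.836 CPM against 0.493 to 0.643 CPM (log2 fold change 0.27, SE 0.22, edgeR adjusted p = 0.619). Without cKO 1 the log2 fold change of Nanos3 was 0.081. Among the 9 tested members, the coefficient of variation over 6 libraries ran from 4.46% for Id4 to 20.9% for Sall4, counting error included, which is larger for genes with few reads such as Nanos3.

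**Figure D3:**
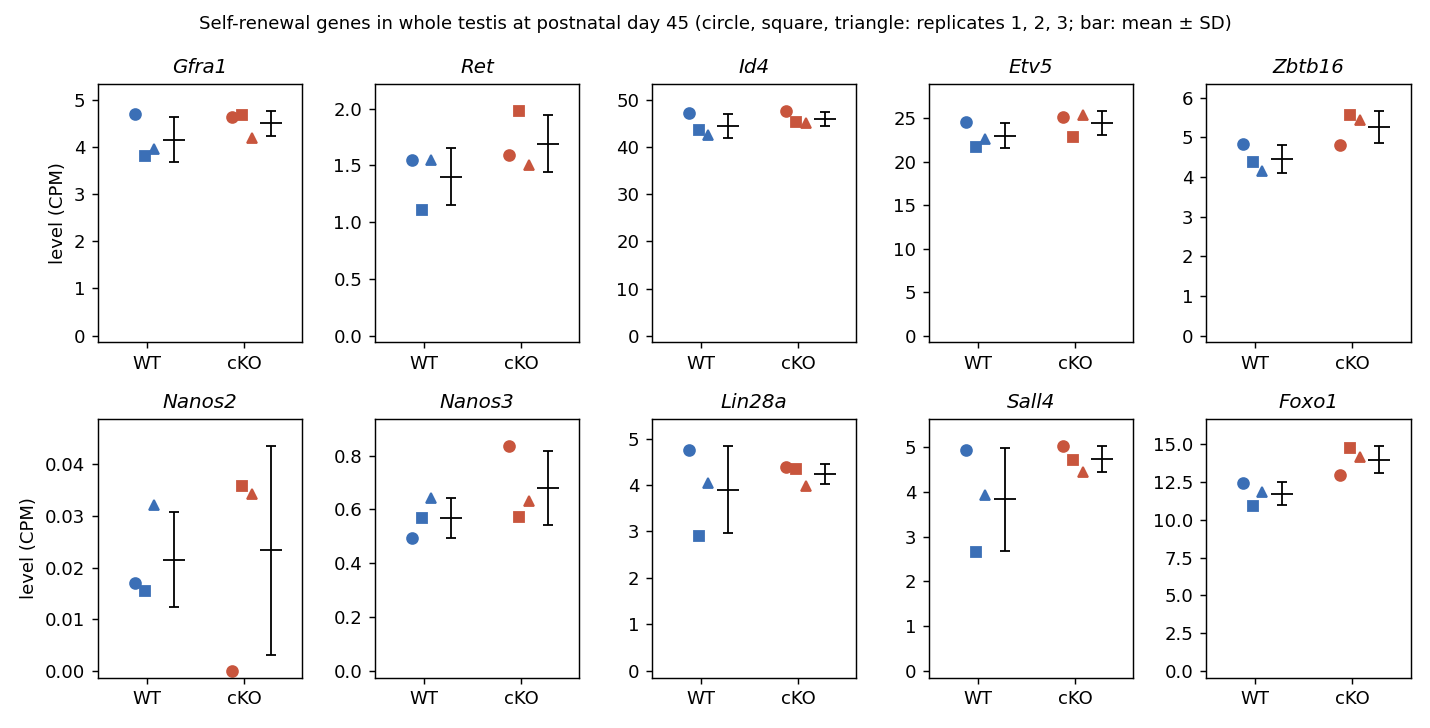
Levels of the 10 genes in CPM, 1 panel per gene with its own axis from 0, 1 point per library and the mean ± SD of each group (n = 3). Foxo1 is the only gene with all 3 cKO libraries above all 3 WT libraries; WT 2 is low in Ret, Lin28a and Sall4.

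Over the list, 0 of the 9 tested members were called, where 0.0183% of the 21902 tested genes were, 0.00913% as higher and 0.00913% as lower in cKO. At an unadjusted p under 0.05 there was 1 of 9 (Foxo1), where 13.9% of all tested genes lay, 7.32% higher and 6.54% lower. DESeq2 called 0 of the 7 members for which it gave an adjusted p, and 1.48% of all such genes. The log2 fold change was above 0 in 9 of 9 members, with a median of 0.24 and a range from 0.050 to 0.31, where 50.7% of all tested genes were above 0 and their median was 0.00301. In bulk RNA, more cells of a type and more RNA per cell cannot be told apart.

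The length of the transcripts moved with this shift. Of the 9 tested members, 8 have 3849 to 8665 bases of exons. Among all 7084 tested genes with exons in that range, 65.8% had a log2 fold change above 0 and the median was 0.057, whereas the 12573 genes with shorter exons had a median of -0.059 and 36.7% above 0. Corrected for GC content and length, the median of the 9 members was 0.11, still with 9 of 9 above 0. Summed round spermatid markers were 1234 to 1248 CPM in WT and 1087 to 1200 CPM in cKO, without overlap, with 4 of 5 below 0. Elongating spermatid markers summed to 14654 to 16062 CPM in WT and 12283 to 15357 CPM in cKO, with overlap. Summed endothelial markers were 21.9 to 23.6 CPM in WT and 24.0 to 27.9 CPM in cKO, also without overlap, with 5 of 6 above 0. Taken singly, 1 of 5 round spermatid and 2 of 6 endothelial markers were without overlap, where 18.9% of all tested genes were. Of these markers 0 were called, and how often such sums are without overlap was not computed. Of 9 Sertoli markers, 7 had a log2 fold change above 0, with Amh and Aard below. The cKO libraries were all above the WT libraries in 2 of the 9 (Sox9 and Wt1), where 10% of all tested genes were. The summed Sertoli ranges overlapped (344 to 374 and 325 to 399 CPM). Below 0 were 5 of 6 macrophage, 4 of 5 peritubular myoid, 4 of 7 Leydig and 4 of 7 spermatocyte markers. The summed ranges of these 4 types overlapped. Their only markers without overlap were 1 macrophage marker, higher in cKO (Mrc1), and 1 peritubular myoid marker, lower in cKO (Tagln). The part of length in the members' shift was not tested beyond that correction, and that of these cell types was not tested.

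**Figure D4:**
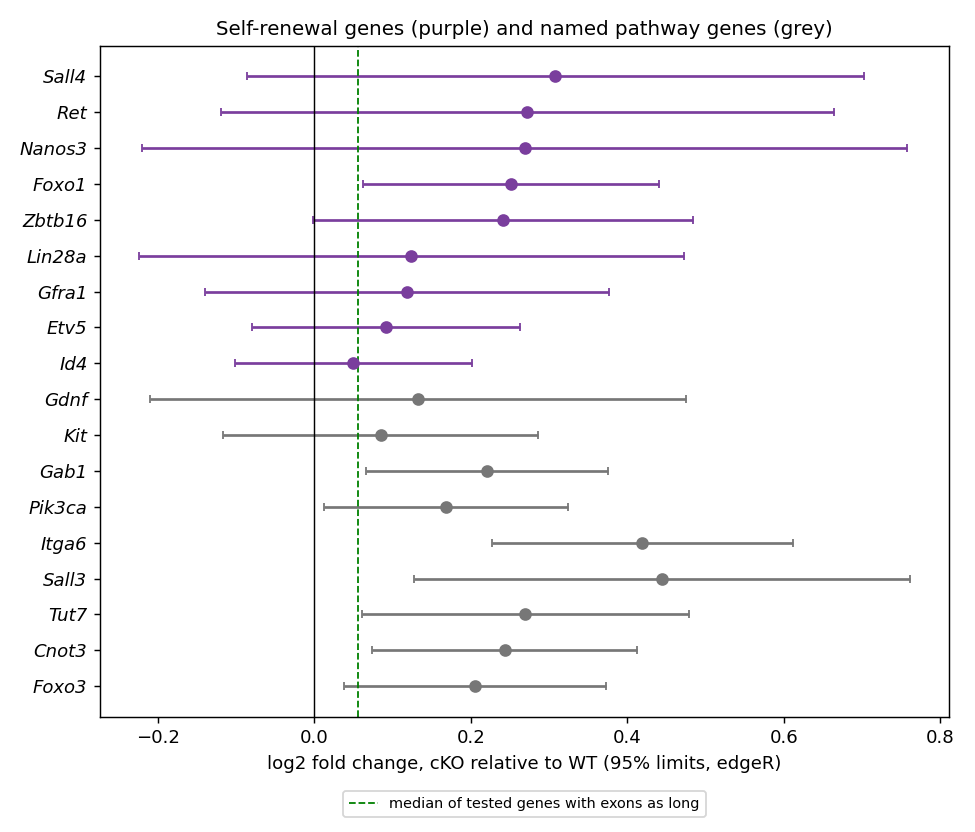
Log2 fold change of cKO relative to WT with 95% limits from edgeR for the 9 tested self-renewal genes (purple) and the named genes of the pathway (grey). The dashed line is the median of 0.057 of tested genes with exons as long; among the purple genes, only the interval of Foxo1 lies above 0.

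The size of the shift varied with the libraries included. WT 2 was the lowest library for 6 of the 9 members and below the gene's mean for all 9, with a median deviation of -0.18 on the log2 scale. No cKO library was the lowest for any member, and WT 1 was above the mean for 6 of 9, with a median deviation of 0.052, near the cKO libraries at 0.086, 0.12 and 0.040. The summed level of the 10 genes was 106, 91.9 and 95.3 CPM in WT 1, 2 and 3 and 107, 105 and 105 CPM in cKO 1, 2 and 3. The median log2 fold change of the members was 0.29, 0.098 and 0.18 without WT 1, 2 and 3 and 0.097, 0.15 and 0.22 without cKO 1, 2 and 3. With so few genes a median can jump between members: without cKO 1, Ret (0.32), Zbtb16 (0.30) and Foxo1 (0.30) had larger log2 fold changes than with it, and 9 of 9 stayed above 0. Without WT 2, 8 of 9 were above 0.

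**Figure D5:**
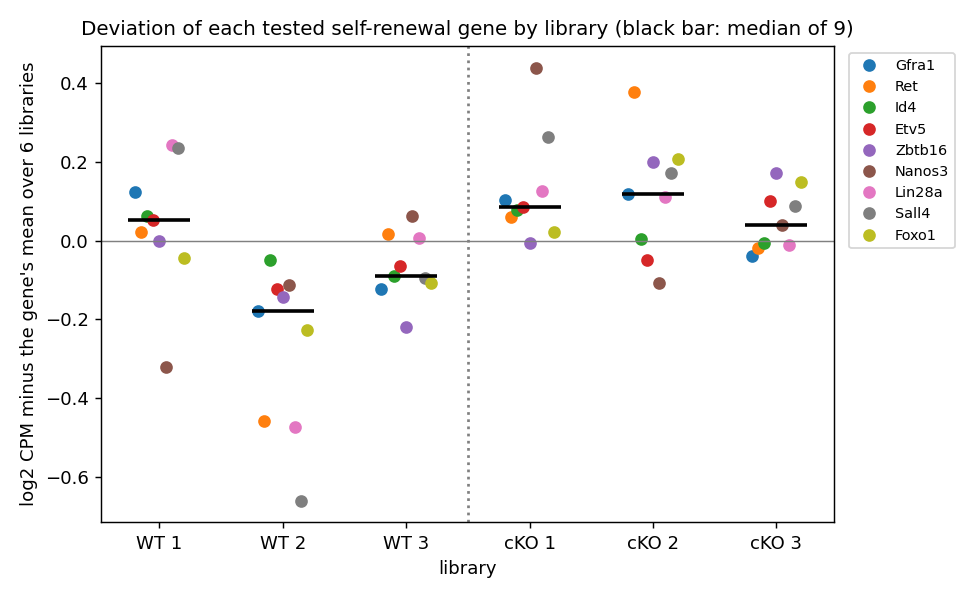
Log2 CPM of each of the 9 tested genes minus its mean over the 6 libraries, by library; the black bars are the medians over the genes. The median is -0.18 in WT 2, -0.091 in WT 3 and 0.040 to 0.12 in the other 4 libraries, so WT 1 lies among the cKO libraries.

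The niche ligands gave no shared direction. Gdnf had 1.26, 1.20 and 1.16 CPM in WT and 1.44, 1.18 and 1.33 CPM in cKO (log2 fold change 0.13, SE 0.16, edgeR adjusted p = 0.747), with cKO 2 inside the WT range. Of 10 ligand genes, 9 were tested, 4 with values above 0 and 5 below, and 0 were called. Their median log2 fold change was -0.015. The largest single value was that of Fgf8, at -0.70 with overlapping groups (edgeR adjusted p = 0.390); it is named after its value was seen.

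Genes that carry the GDNF and fibroblast growth factor signal inside the cell were all tested, 35 of 35, and 0 were called. They had a median log2 fold change of 0.073, with 29 above 0 and 6 below. In 4 of them the cKO libraries were all above the WT libraries, where 10% of all tested genes were. Gab1, a docking protein of receptor tyrosine kinases, had 24.2 ± 0.773 CPM in WT and 28.2 ± 1.15 CPM in cKO (SD, n = 3 each; log2 fold change 0.22, edgeR adjusted p = 0.288). Pik3ca, the catalytic subunit of phosphoinositide 3-kinase, had a log2 fold change of 0.17 (edgeR adjusted p = 0.335).

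Transcription factors and cell cycle genes known to respond to GDNF were likewise not separated. All 8 were tested, with 6 values above 0, a median of 0.099 and 0 called. The groups did not overlap in 1 of them, the early growth response factor Egr2, where 18.9% of all tested genes did so. Egr2 had 11 to 17 reads a library, at 0.169 to 0.221 CPM in WT and 0.233 to 0.250 CPM in cKO. Bcl6b, a repressor that GDNF induces, had a log2 fold change of 0.18 (edgeR adjusted p = 0.598), and Lhx1 one of 0.068 (edgeR adjusted p = 0.900). Egr2, Bcl6b and Lhx1 are named after their values were seen.

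Other markers of undifferentiated spermatogonia had values on both sides of 0. Of 18, 15 were tested, 9 with a log2 fold change above 0 and 6 below, the median was 0.096 and 0 were called. Itga6, an integrin subunit of stem cells at the basement membrane that other cells also carry, had 1214, 1195 and 1116 reads in WT and 1787, 1330 and 1636 reads in cKO, or 19.0 ± 1.44 and 25.4 ± 2.27 CPM (SD, n = 3 each). The groups did not overlap (log2 fold change 0.42, SE 0.088), and the edgeR adjusted p over all genes was 0.277. Itga6 passed the threshold with DESeq2 (adjusted p = 0.0116), where 193 of 13069 genes did. In edgeR it passed without the filter on low counts (adjusted p = 0.00127, with 757 of 36605 genes). It also passed without WT 1 (0.0454, with 116 of 22392) and without cKO 1 (0.0295, with 628 of 22255). It passed in no other setting. The edgeR adjusted p was 0.670 without WT 2, 0.730 without WT 3, 0.585 without cKO 2 and 0.496 without cKO 3. Eomes, known from a stem cell fraction, had a log2 fold change of -0.22 (edgeR adjusted p = 0.696), Tspan8 one of -0.32 (edgeR adjusted p = 0.335) and Sox3, known from committed progenitors, one of 0.33 (edgeR adjusted p = 0.368). These 3 are named after their values were seen. Pax7, Neurog3 and Pdx1 had too few reads to be tested.

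Partners and relatives of the members comprised the CCR4-NOT subunits with which NANOS2 acts, the let-7 processing enzymes of the LIN28 pathway, and paralogs. All 29 were tested and 0 were called, with a median log2 fold change of 0.15 and 26 above 0. The cKO libraries were all above the WT libraries in 9 genes and all below in 1 (Cnot7), where 10% of all tested genes were higher and 8.86% lower in this way, and 16.6% higher among genes with exons as long as those of the members. Sall3, a paralog of Sall4, had 5.55 ± 1.13 CPM in WT and 7.57 ± 0.875 CPM in cKO (SD, n = 3 each; log2 fold change 0.44, edgeR adjusted p = 0.290). Tut7, a terminal uridylyltransferase that acts on let-7 precursors, had a log2 fold change of 0.27, the CCR4-NOT subunit Cnot3 0.24 and Foxo3 0.21 (edgeR adjusted p = 0.305, 0.288 and 0.307). Tut7 passed the threshold only without cKO 1 (edgeR adjusted p = 0.0228), where 628 of 22255 genes did. Sall3 passed only without the filter on low counts (edgeR adjusted p = 0.0192), where 757 of 36605 genes did.

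On the differentiating side, Kit, the receptor that spermatogonia gain when they leave the undifferentiated state, had 31.9, 36.6 and 29.5 CPM in WT and 31.5, 35.4 and 37.1 CPM in cKO. The groups overlapped (log2 fold change 0.085, SE 0.092, edgeR adjusted p = 0.719). All 8 genes of differentiating spermatogonia were tested, 7 had values above 0, the median was 0.069 and 0 were called, with log2 fold changes from -0.096 to 0.15. The groups did not overlap in 0 of these 8, where 18.9% of all tested genes did so. WT 2, the lowest library for most self-renewal genes, was also the lowest for 6 of these 8 genes and had their lowest summed level, at 611 CPM. Kit was an exception, lowest in WT 3 and second to cKO 3 in WT 2.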

How the data were processed

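Single-end reads of 75 bases from 6 testis libraries were counted by the authors. The deposited values are raw read counts per gene, unnormalized, in the layout of STAR's gene count output. The submitters' processing notes name STAR, HTSeq, DESeq2 and mm10, with no version or role; the annotation release is not given in the sources used here. Lines for reads outside single genes held 14.8% to 16.7% of reads and were left out. Of the 2 stranded count columns, the one that held 96.0% to 96.2% of stranded reads was used. Symbols came from GENCODE M21 (GRCm38), which matched 52147 of 53700 identifiers.

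Counts were tested with edgeR 4.0.16 (R 4.3.3): TMM scaling, genes kept by filterByExpr (min.count 10), two-sided quasi-likelihood tests with no covariate, and Benjamini-Hochberg adjustment over 21902 genes. Tested on simulated data for cKO against WT, 83.5% of changes of 1 (log2) and 45.5% of changes of 0.5 were recovered among 21663 genes. Of the calls, 25 of 192 and 6 of 97 were false. Genes were simulated independently, without library effects shared between genes. With no change simulated, 5.02% of genes had an unadjusted edgeR p under 0.05, where 13.9% did in the data. Changes smaller than 0.5, such as those of the members, were not simulated. Named genes are the 10 members, Msl3, Gdnf, Kit and, per list, up to 4 genes with non-overlapping groups, an unadjusted p under 0.05 and at least 1 CPM, by size of change; others are marked as named after their values were seen. One gene that this rule names is not reported here. The members and lists were chosen with earlier results of these data known. Alternatives were RLE scaling, library totals, 2 other filters, unstranded counts, a replicate block, robust fitting, DESeq2 1.42.0, each library left out, the longest transcript as length and, added after the data were seen, a loess correction (span 0.3) for GC content and length.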

Additional observations from a re-analysis of the deposited data

How the results depend on the processing

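No member was called under any of the 15 alternative settings; the lowest adjusted p was 0.115, for Foxo1 without cKO replicate 1. Of 133 values of tested members under these settings, 131 kept their sign and side of the threshold. The exceptions in sign were Gfra1 with unstranded counts, at -0.085, and Lin28a without WT replicate 2, at -0.053 (range over single libraries left out -0.053 to 0.29); the cause was not tested. Unstranded counting both added opposite-strand reads of Gfra1 and left out 205 to 293 reads a library. The count of called genes was 1 rather than 0 for other undifferentiated spermatogonia markers (Itga6) with no filter on low counts and with DESeq2, and 0 to 1 when each library was left out. For partners and paralogs it was 1 with no filter (Sall3) and 0 to 2 when each library was left out, and for GDNF and FGF signal transduction 0 to 1; the cause was not tested. Over all genes the count was 4, and 757 without the filter, 193 with DESeq2, 49 with the replicate block, and 1 to 628 with each library left out.

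Deviations from the group mean correlated across genes at 0.376, 0.263 and -0.071 for libraries 1, 2 and 3 of both groups. WT 1 correlated best with cKO 1 and WT 2 with cKO 2, whereas WT 3 correlated best with cKO 2 (0.098). Whether libraries of the same number share a batch or a pairing was not tested. With the replicate block 0 members were called and their median was 0.24. With the longest transcript as length, Gfra1 had 0.932, Ret 0.283 and Nanos3 0.855 RPKM. Depth limits Nanos2, Nanos3 and Ret most.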
